A study of Mus musculus with 10 samples.

Results

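Among the sites that C/EBPβ occupied 6 h after 3T3-L1 preadipocytes were induced to differentiate, 1056 had been occupied before induction and were shared with the glucocorticoid receptor (GR) after it. A site was included when its listed C/EBPβ peak at 6 h shared at least 1 bp with a C/EBPβ peak at 0 h and at least 1 bp with a GR peak at 6 h. These pre-bound sites joined by GR made up 5.09% of the 20746 C/EBPβ peaks at 6 h, 14.3% of the 7396 peaks already listed at 0 h and 39.02% of the 2706 peaks shared with GR. They overlapped 1071 different peaks of the 0 h list (10.3% of 10359) and 1053 different GR peaks (26.3% of 4007). The sites were chosen by the presence of a listed peak in 3 libraries, so that presence is no result here. They were set beside the other C/EBPβ 6 h peaks, which fell into 3 classes. The first was 6340 pre-bound sites without GR, the second 1650 sites new at 6 h with GR, and the third 11700 new sites without GR.

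3T3-L1 is an established mouse fibroblast line that turns into fat cells in culture when given an adipogenic stimulus. The factor libraries were C/EBPβ in undifferentiated cells (0 h), C/EBPβ at 6 h after induction and GR at 6 h, the last precipitated with 2 antibodies. Histone H3 acetylated on lysine 9 (H3K9ac) had been profiled at 0, 24 and 240 h. The labels call the procedure a standard protocol and name no inducing agent. No group carried a genetic change or a label of its own beyond time and antibody. Each group was 1 library, so no value below has a replicate error, and the 95% intervals cover counting error over peaks only. Peaks on neighbouring DNA share chromatin and are not independent, which these intervals ignore, and they are not adjusted for the number of comparisons. Read totals are not in the lists, so depth is unknown, and an unlisted peak may still be bound.

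C/EBPβ is a basic leucine zipper protein that binds DNA as a dimer and is among the first regulators to act when preadipocytes are induced. GR is a nuclear receptor that stays largely in the cytoplasm until a glucocorticoid such as dexamethasone binds it, after which it moves to the nucleus and binds DNA, often at sites that other factors already keep open. Acetylation of H3K9 marks active promoters and enhancers. The sites described here are those where C/EBPβ was listed before the stimulus and both proteins were listed after it.

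The 3 peaks of such a site lay almost on top of one another, a description of peaks chosen for overlapping. The definition asked for at least 1 bp of both overlaps, so their nearness was largely given by the choice. The overlap was a median of 301 bp with the 0 h peak and 348.5 bp with the GR peak, and at 1037 of 1056 sites (98.2%) both overlaps took up 50% or more of the shorter peak. The 0 h peak itself overlapped a GR peak at 1037 sites as well. A single GR peak was met at all but 11 sites, and a single 0 h peak at all but 26. Peak centres at 6 h were a median of 51 bp from the GR centre (quartiles 21.5 and 101.6 bp), which was close to the 51.5 bp seen at new sites with GR. Centres of the 0 h peaks were a median of 57 bp from the GR centre. GR lay nearer to the 6 h centre at 566 sites (53.6%, 50.6 to 56.6%) and nearer to the 0 h centre at 483. Where only the 1037 sites whose 0 h peak itself overlapped GR were counted, these numbers were 549 and 481, a share of 52.9% (49.9 to 55.96%). The 6 h and 0 h centres were 54 bp apart at the median, against 31 bp at pre-bound sites without GR, whose peaks were narrower.

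At the edge of the definition stood few sites. Coordinates are those of the mm8 mouse genome build. The shortest overlaps were 1 bp, on chromosome 2 at 152858932 to 152859485 with the 0 h peak and on chromosome 17 at 63346138 to 63346322 with the GR peak. Just outside, the nearest site, on chromosome 2 at 6978302 to 6978482, overlapped a 0 h peak and missed a GR peak by 8 bp. In all, 13 sites had an overlap under 50 bp, and 23 peaks missed inclusion by a gap under 50 bp.

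The peaks of these sites were tall and wide at 6 h, a description of peaks chosen for being in 3 lists. Peak height is the authors' whole-number count of reads at the peak and starts at 12 in each list. At 6 h the heights ran from 12 to 112 with a median of 42 (quartiles 31 and 56), and 882 of 1056 sites (83.5%) stood in the tallest of 4 equal classes of the 6 h list. Median 6 h heights were 22 at pre-bound sites without GR and 21.5 at new sites with GR. The authors' fold enrichment at 6 h had a median of 15.1 among the pre-bound sites joined by GR. The median width was 480.5 bp, against 294 bp without GR and 404.5 bp at new sites with GR. At 0 h their heights had a median of 24 (12 to 133). GR heights had a median of 16, equal to that of the whole GR list, quartiles of 13 and 21 and a highest value of 121. At 339 sites (32.1%) the GR height was 12 or 13, next to the lower limit of the list.

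C/EBPβ peaks had grown more between 0 and 6 h, relative to the rest, at the sites that GR joined than at other pre-bound sites. The ratio of the 6 h to the 0 h height was a median of 1.54 (quartiles 1.07 and 2.23) at the 1056 sites and 1.03 (0.75 and 1.43) at pre-bound sites without GR. Heights of the 2 libraries were not scaled to each other here, so a ratio of 1 does not mark equal occupancy, but a common scale factor cancels when the classes are compared. Against the median ratio of all pre-bound sites, 1.08, which 50% of them exceeded, 74.1% (71.3 to 76.6%) of the sites joined by GR lay higher and 45.98% (44.8 to 47.2%) of those without GR. The difference was 28.1 percentage points (25.1 to 30.9). A ratio of at least 2 was found at 341 sites joined by GR (32.3%) and at 9.38% of those without.

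The same held at every level of binding before induction. All pre-bound sites were divided into 4 equal classes by their 0 h height. In the weakest class, with heights of 12 to 15 at 0 h, the median 6 h height was 32 at sites joined by GR and 18 at those without, and the median ratios were 2.46 and 1.38. In the next class (15 to 21) the ratios were 2.08 and 1.18, and in the following one (21 to 32) they were 1.66 and 0.913. In the strongest class the ratios were 1.04 and 0.671, so that the 6 h height exceeded the 0 h height at 195 of 370 sites joined by GR and at 252 of 1479 without. The difference in the share above the median ratio was between 22.3 and 47.9 points in the 4 classes, and 34.6 points (31.9 to 37.02) with the classes of 0 h height matched. It narrowed to 18.3 points (15.0 to 21.3) with classes of 6 h width matched. With classes of 6 h height matched it was 13.6 points (10.6 to 16.6), where the height that enters the ratio is itself held level only as far as 4 broad classes allow.

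**Figure D1:**
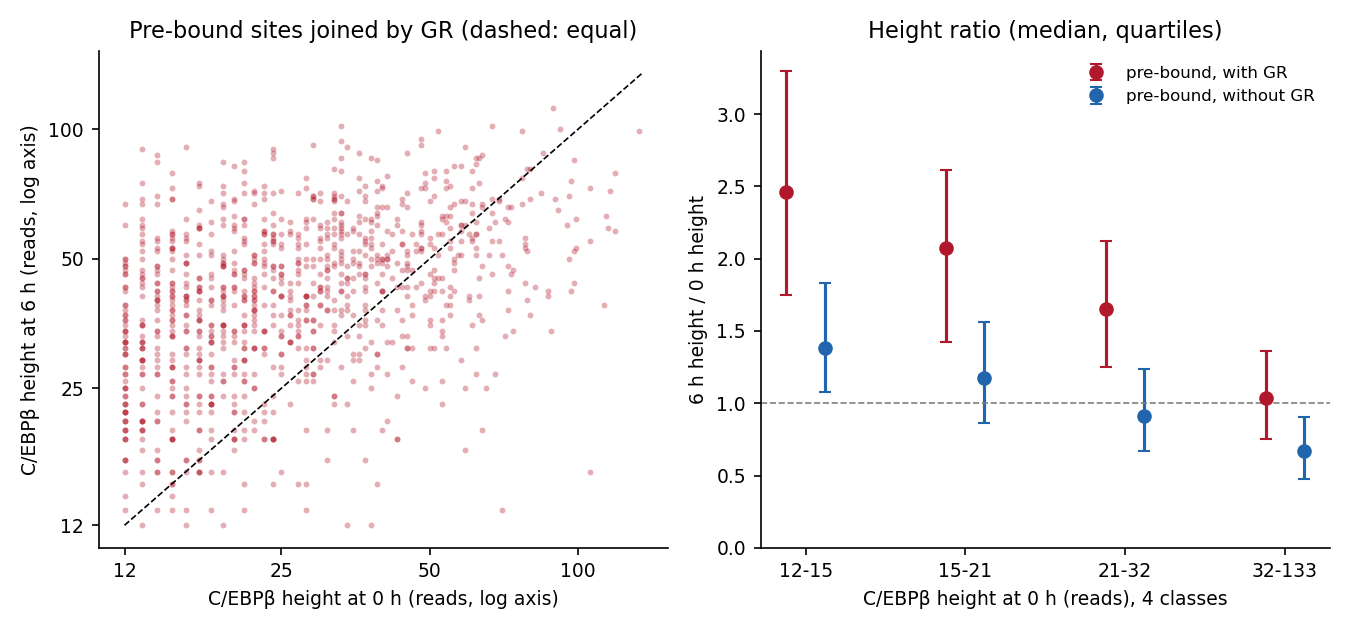
Left, C/EBPβ peak height at 0 h (x) and 6 h (y), in reads on log axes, with 1 point for each of the 1056 pre-bound sites joined by GR and a dashed line where both are equal. Right, median ratio of 6 h to 0 h height with its quartiles in 4 classes of 0 h height, where sites joined by GR (red) lie above sites without GR (blue) in each class, from 2.46 against 1.38 in the weakest to 1.04 against 0.671 in the strongest.

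The sites at the ends of this range show what the ratio measures. The highest ratio, 6.92, was on chromosome 6 at 118901220 to 118901807, where the C/EBPβ height was 13 at 0 h and 90 at 6 h and the GR height 27. The next were on chromosome 19 at 34253850 to 34254300, with heights of 14 and 87, and on chromosome 1 at 90110088 to 90110917, with 14 and 84. All 3 were barely listed before induction and among the tall peaks after it, with GR heights between 22 and 27. At the other end, the lowest ratio of 0.151 was on chromosome 6 at 87451016 to 87451237, where a 0 h height of 106 faced a 6 h height of 16. In this site and the next lowest 2, on chromosomes 17 and 19, the 0 h peak also overlapped another 6 h peak, so a single broad peak of the 0 h list was met by several at 6 h. This occurred at 31 of the 1056 sites. Over pairs in which each peak met only the other, the median ratios were 1.57 with GR (1001 sites) and 1.04 without.

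Sites that GR would join were already stronger before induction. The 0 h height lay in the tallest of the 4 classes of the 0 h list (27 or more) at 44.4% (41.4 to 47.4%) of the 1056 sites and at 30.9% (29.8 to 32.1%) of the pre-bound sites without GR, with 32.8% over both. The difference was 13.5 points (10.3 to 16.7), and 8.94 points (5.80 to 12.1) with fold enrichment in place of height. With only the stronger peaks, those above the median height of each factor list, it was 5.75 points (0.367 to 11.4). There the tallest of the 4 classes was taken anew from the shortened 0 h list. Sites were also sorted anew, so one with a lower 0 h or GR peak counted as new or as without GR. Seen from the 0 h list, 17.95% of its tallest class (465 of 2590 peaks) belonged to a site joined by GR, then 10.3%, 7.30% and 5.76% in the lower classes. That list includes peaks no longer listed at 6 h, so these shares mix staying listed with being joined by GR. Pre-bound sites alone were also taken in 4 equal classes of 0 h height. From the tallest class down, 20.01%, 14.5%, 12.01% and 10.5% of them were joined by GR, a narrower range. With 4 classes of 6 h height matched, the difference in the share with a 0 h height of 27 or more was -0.117 points (-3.42 to 3.28). These classes are broad: the tallest spans 6 h heights of 26 to 112 and held 882 of the 1056 sites. Sites of equal 6 h height were therefore not compared.

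The tallest members at each time were partly the same places. On chromosome 15 at 56866934 to 56867755 the C/EBPβ height was 133 at 0 h, the highest of the 1056, and 99 at 6 h, and the GR height was 34. The tallest site at 6 h, on chromosome 4 at 58425018 to 58425348, had heights of 89 at 0 h, 112 at 6 h and 22 for GR. On chromosome 19 at 46954656 to 46955107 the C/EBPβ height was 33 at 0 h and 102 at 6 h, with a GR height of 20. A height of 102 at 6 h was also reached on chromosome 6 at 53925082 to 53925548, after 67 at 0 h and with a GR height of 36. The next site, on chromosome 11 at 86419901 to 86420428, had C/EBPβ heights of 92 and 100 and a GR height of 36. At these 4 tallest sites at 6 h the GR heights lay between 20 and 36. The fifth place was shared by 3 sites with a 6 h height of 99, whose GR heights were 34, 16 and 13, so that tall C/EBPβ peaks stood beside GR peaks above, at and below the median of the GR list. Of the 5 tallest at 0 h, 3 had a GR height of 12 or 13. Over all 1056 sites the rank correlation (Spearman's rho, a description over sites that share their libraries) was 0.41 between the 0 h and 6 h C/EBPβ heights, 0.15 between the 6 h C/EBPβ and GR heights and -0.03 between the 0 h C/EBPβ and GR heights.

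GR peaks were lower at these sites than where C/EBPβ was new. A GR height above the median of the GR list, 16, was found at 44.98% (42.0 to 47.99%) of the pre-bound sites and at 56.97% (54.6 to 59.3%) of the new sites with GR, with 52.3% over both. The difference was -11.99 points (-15.8 to -8.13), and -11.6 points (-16.0 to -7.03) with classes of 6 h C/EBPβ height matched. By GR height the classes moved in opposite directions. Of the weakest GR peaks (12 to 13), 31.6% (28.8 to 34.5%) lay on a pre-bound site and 32.9% on a new one. Of the strongest (24 to 128), 20.4% (18.0 to 22.96%) lay on a pre-bound site and 52.3% on a new one.

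**Figure D2:**
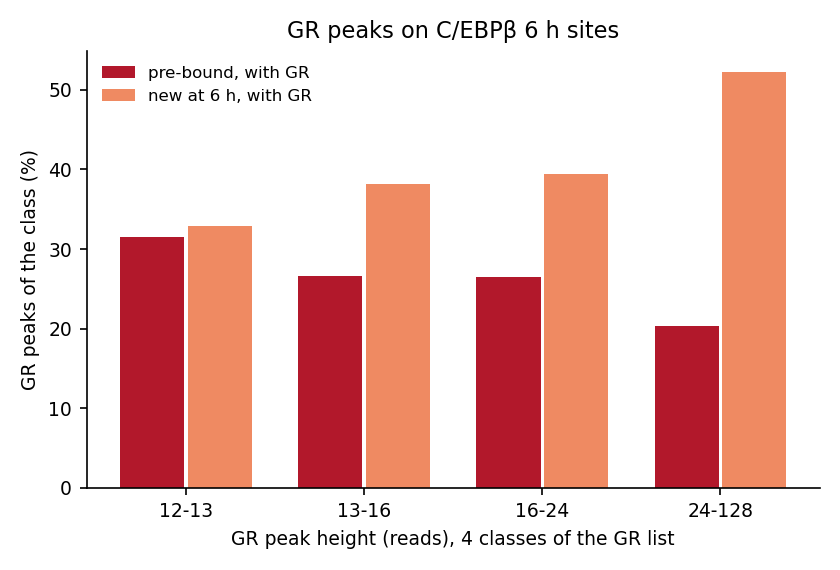
Share of GR peaks (y, %) in each of 4 equal classes of GR height (x, reads, weakest at left) that overlapped a pre-bound C/EBPβ site (red) or a C/EBPβ site new at 6 h (orange). The red share falls from 31.6% to 20.4% and the orange share rises from 32.9% to 52.3%, and the rest of each class lay outside the C/EBPβ 6 h list.

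A few pre-bound sites nevertheless held very tall GR peaks. The tallest GR peak on a pre-bound site had a height of 121, on chromosome 8 at 13620546 to 13621102, where C/EBPβ heights were 77 at 0 h and 67 at 6 h. The second, on chromosome 19 at 40485192 to 40486123, had a GR height of 116 and C/EBPβ heights of 22 and 71. On chromosome 16 at 86863934 to 86864204 a GR height of 111 stood over C/EBPβ heights of only 18 and 30. None of the 5 sites with the tallest GR peaks lay near an H3K9ac region of any list.

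Acetylation was not used to choose the sites and could be compared. A site counted as near an H3K9ac region when the gap was under 1 kb, and the H3K9ac lists hold only regions away from transcription start sites that the authors called enriched at 1 time relative to another. Of the 1056 sites, 80 (7.58%) were near a region of the 0 h list, 83 (7.86%) near one of the 24 h list and 60 (5.68%) near one of the 240 h list. The shares over all 20746 C/EBPβ peaks at 6 h were 5.68%, 3.11% and 4.98%. No site was near regions of more than 1 list, and 833 (78.9%) were near none. The H3K9ac lists themselves share no region, so this count can come from how they were made.

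The pre-bound sites joined by GR had a 0 h share near that of the other pre-bound sites and a 24 h share nearer to that of the other GR sites. Near 0 h regions they differed from pre-bound sites without GR by -0.863 points (-2.47 to 1.01), within counting error, and exceeded new sites with GR by 4.42 points (2.69 to 6.33), a ratio of 2.40. With classes of 6 h width matched, the first of these differences was -2.65 points (-4.45 to -0.493). Near 24 h regions they exceeded pre-bound sites without GR by 6.298 points (4.79 to 8.10), a ratio of 5.03. This excess was 5.96 points (4.43 to 7.87) with classes of 6 h height matched. It was 10.8 points (7.54 to 14.8) with the stronger peaks of the factor lists, on which the classes were redefined. Near 240 h regions the sites joined by GR differed from pre-bound sites without GR by -0.233 points (-1.62 to 1.43). They differed from new sites with GR by 1.20 points (-0.468 to 2.9997).

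**Figure D3:**
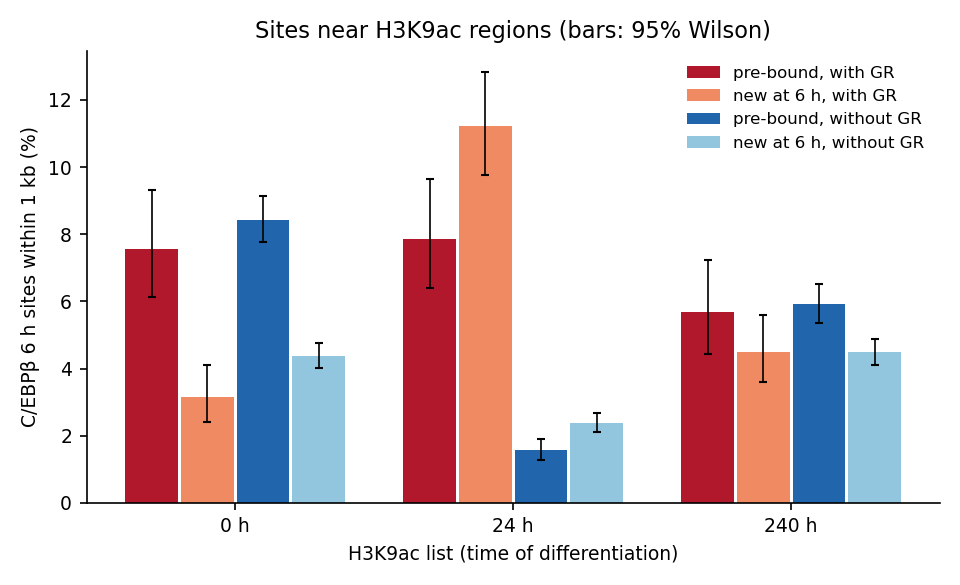
Share of C/EBPβ 6 h peaks (y, %) within 1 kb of an H3K9ac region of the 0, 24 and 240 h lists (x) in 4 classes of peaks, with 95% Wilson intervals as error bars. Pre-bound sites joined by GR (dark red) stand at 7.58%, 7.86% and 5.68%, next to the other pre-bound sites (dark blue) at 0 h and well above them at 24 h.

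Near 24 h regions the pre-bound sites joined by GR had a lower share than new sites with GR, by -3.35 points (-5.54 to -1.07). With classes of GR height matched the difference was -1.99 points (-4.09 to 0.271), smaller and with an interval that holds 0. With the stronger peaks of the factor lists (taller than the median) the classes were redefined, and the H3K9ac lists were kept whole. A site with a lower GR peak then counted as without GR, and one with a lower 0 h peak as new. On the 321 and 739 sites so defined the difference was -2.97 points (-7.19 to 1.77). Among sites over the strongest GR peaks, 38 of 209 pre-bound sites (18.2%) and 93 of 535 new sites (17.4%) were near a 24 h region, a difference of 0.799 points (-4.98 to 7.31). In the class below the strongest the shares were 7.49% and 9.36%, a difference of -1.87 points (-6.01 to 2.66). In the next class they were 4.49% and 9.16%, and this difference of -4.67 points (-8.49 to -0.61) lay below 0 at like GR height. In the weakest class they were 4.15% and 5.81%, a difference of -1.66 points (-5.18 to 1.84). The excess of pre-bound sites near 0 h regions remained at 4.22 points (2.45 to 6.26) with GR height matched. In the strongest GR class it was 2.06 points (-0.540 to 5.86) and in the next 2.92 (-0.342 to 6.77), both intervals holding 0. In the lower classes it was 3.71 (0.285 to 7.70) and, over the weakest GR peaks, 7.21 points (3.14 to 11.5).

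Among the 1056 sites themselves, the height of the GR peak separated those near 24 h regions. The sites were ranked into 4 groups of 264. In the group with the tallest GR peaks (21 to 121) 42 sites (15.9%, 11.99 to 20.8%) were near a 24 h region, and in the group with the lowest (12 to 13) 12 sites (4.55%, 2.62 to 7.78%) were, a difference of 11.4 points (6.29 to 16.6). The groups between had 6.82% and 4.17%. Near 0 h regions the order was the opposite, with 4.55% of the sites with the tallest and 10.2% of those with the lowest GR peaks, a difference of -5.68 points (-10.3 to -1.20). New sites with GR, ranked by their own GR heights, showed the same orders. They had 20.1% in the highest and 6.31% in the lowest group near 24 h regions, and 1.69% and 3.64% near 0 h regions. With the 1056 sites ranked by 6 h C/EBPβ height, 8.71% of the tallest group and 4.55% of the lowest were near 24 h regions. This difference of 4.17 points (-0.132 to 8.63) was within counting error. The groups between had 9.85% and 8.33%, so the lowest group stood below all the others. Whether GR height and 6 h C/EBPβ height separated the sites differently was not tested.

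The sites that differed most in the change of C/EBPβ height also differed in the mark. Where the ratio of 6 h to 0 h height was lowest (0.151 to 1.07), 33 of 264 sites (12.5%, 9.04 to 17.03%) were near a 0 h region, 15 (5.68%) near a 24 h region and 8 (3.03%) near a 240 h region. Where it was highest (2.23 to 6.92), these were 7 (2.65%, 1.29 to 5.37%), 29 (10.98%) and 23 (8.71%). The groups between had 8.71% and 6.44% near 0 h regions, from higher to lower ratio, 7.20% and 7.58% near 24 h regions and 5.68% and 5.30% near 240 h regions, so the 0 h and 24 h shares did not change step by step. The differences of the highest from the lowest group were -9.85 points (-14.6 to -5.45) near 0 h regions, 5.30 points (0.557 to 10.2) near 24 h regions and 5.68 points (1.67 to 9.97) near 240 h regions. Sites with the tallest 0 h peaks were near 0 h regions in 11.7% of cases and those with the lowest in 5.68%, a difference of 6.06 points (1.23 to 11.02). The ratio has the 0 h height as its denominator, and the groups were not compared at like 0 h height. The change in height and the height before induction therefore cannot be told apart here. Pre-bound sites without GR, ranked by their own ratios, had 7.19% in the highest and 8.77% in the lowest group near 0 h regions, 3.09% and 0.946% near 24 h regions, and 6.12% and 6.69% near 240 h regions. Whether these contrasts differ between the classes was not tested.

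**Figure D4:**
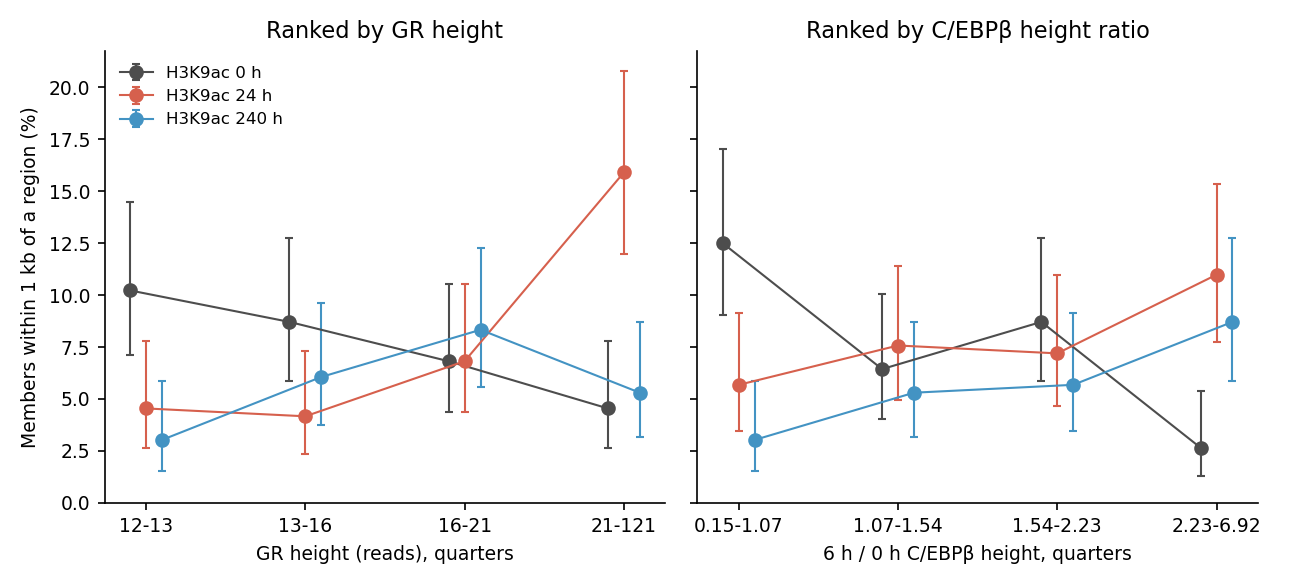
Share of the 1056 pre-bound sites joined by GR (y, %) within 1 kb of an H3K9ac region of the 0 h (grey), 24 h (red) and 240 h (blue) lists, in 4 groups of 264 sites ranked by GR height (left) or by the ratio of 6 h to 0 h C/EBPβ height (right), with 95% Wilson intervals. The 24 h share reaches 15.9% at the tallest GR peaks, and the 0 h share is 12.5% at the lowest and 2.65% at the highest ratio, with the groups between at 6.44% and 8.71%.

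At the sites near 24 h acetylation with the tallest GR peaks, the listed C/EBPβ height was larger at 6 h than at 0 h, without scaling between the libraries. On chromosome 15 at 61437574 to 61438594 the C/EBPβ heights were 33 at 0 h and 70 at 6 h and the GR height 93, beside an acetylated region from 61437700 to 61441150. On chromosome 16 at 52014030 to 52014367 the heights were 12, 43 and 90, inside a region from 52012700 to 52015800. On chromosome 11 at 65183933 to 65184505 they were 15, 73 and 74, inside a region from 65180450 to 65185450 whose average read count, the authors' measure of the mark, was 14. The fourth, on chromosome 2 at 152497467 to 152497839, had 12, 34 and 73, and the fifth, on chromosome 6 at 12408371 to 12409193, had 32, 69 and 60. C/EBPβ height was at least 2.12-fold its 0 h value at all 5, while 32.3% of all 1056 sites had a ratio of at least 2. The sites on chromosomes 16 and 2 stood at the lower limit of the 0 h list, 12, where ratios run high. These 5 were picked by rank and do not stand for all sites near 24 h regions. At the 5 sites with the tallest GR peaks of all 1056, the ratio ran from 0.870 to 3.23. Over all 1056 sites the rank correlation between the ratio and GR height was 0.14.

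Near the mark of undifferentiated cells and of adipocytes, the sites with the tallest C/EBPβ peaks at 6 h had GR heights of 15 to 32. Near 0 h regions they were the site on chromosome 4 given above, the site on chromosome 2 at 61096288 to 61096948, with C/EBPβ heights of 59 and 91 and a GR height of 15, and the site on chromosome 18 at 4969611 to 4970208, with 49, 79 and 17. Near 240 h regions they were on chromosome 12 at 8458907 to 8459236, with C/EBPβ heights of 48 and 95 and a GR height of 32, on chromosome 6 at 115632230 to 115632781, with 24, 90 and 20, and on chromosome 6 at 17059236 to 17059677, with 36, 88 and 15.

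The acetylated regions beside these sites were broader than the rest of their lists and more often had the lowest FDR step. The 83 sites near the 24 h mark touched or neighboured 87 regions, 5.34% of that list, of which 12 were also near a new site with GR and 3 near a pre-bound site without GR. An FDR listed as 0, the lowest step, was found for 43.7% of the 87 regions and 16.1% of the other 24 h regions, a difference of 27.5 points (17.4 to 38.1). Their median width was 1750 bp against 1300 bp. At 240 h the same shares were 68.1% of 69 regions and 45.1% of the others (23.1 points, 11.3 to 32.9), and at 0 h 63.3% of 79 regions and 50.2% (13.1 points, 1.97 to 22.98). The part of region width in these shares was not tested. A wide region more easily lies within 1 kb of any site, so choosing regions by nearness itself favours width. Regions near the other classes of C/EBPβ peaks were not compared. Of the sites whose centre lay inside a region, 26 of 57 at 24 h (45.6%), 35 of 60 at 0 h (58.3%) and 31 of 47 at 240 h (66.0%) were in its middle 50%. An even spread would put 50% there, and the other classes of C/EBPβ peaks were not compared, so these counts show no trait of the sites.

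With a longer reach the contrast at 24 h narrowed as a ratio and kept its direction. Within 10 kb, 16.8% of the 1056 sites and 5.69% of the pre-bound sites without GR had a 24 h region. Within 100 kb the shares were 39.1% and 22.4%, and 39.4% of the new sites with GR had one. Near 0 h regions the shares within 100 kb were 49.4% for the 1056 sites, 46.1% for pre-bound sites without GR and 39.5% for new sites with GR.

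Pre-bound sites joined by GR had C/EBPβ neighbours more often than pre-bound sites without GR. Another C/EBPβ 6 h peak lay within 10 kb of 678 of them (64.2%, 61.3 to 67.04%), against 43.4% (42.1 to 44.6%) of pre-bound sites without GR and 47.7% of all C/EBPβ peaks at 6 h. The difference from pre-bound sites without GR was 20.8 points (17.7 to 23.9). It was 17.7 points (14.3 to 20.96) with classes of 6 h height matched and 11.5 points (9.40 to 13.3) at a distance of 50 kb. Of the new sites with GR, 990 had such a neighbour, a difference of 4.205 points (0.45 to 7.91). This difference was 3.18 (-1.19 to 7.54) with 6 h height matched. It was 8.74 (2.21 to 15.2) with the stronger peaks of the factor lists, on which classes and neighbours were redefined. When centres within 1 kb counted as shared it was 8.04 (4.62 to 11.4). The neighbours were of all classes. Counted once for each site they neighboured, they comprised 645 new peaks without GR, 282 pre-bound peaks without GR, 195 new peaks with GR and 186 pre-bound peaks with GR. Around new sites with GR these counts were 918, 331, 296 and 195. The whole 6 h list held 11700, 6340, 1650 and 1056 peaks of these classes. Peaks with GR thus made up a larger part of the neighbours of either class than of the list, where they were 13%. A further GR peak that the site did not itself overlap lay within 10 kb of 27.7% (25.1 to 30.5%) of the sites, of 25.2% (23.2 to 27.4%) of new sites with GR and of 11.8% (11.1 to 12.7%) of pre-bound sites without GR.

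Sites closer than 10 kb to each other formed 974 loci, 69 of them with 2 to 4 sites. The window of 100 kb with most sites, on chromosome 6 from 129100000 to 129200000, held 6, where C/EBPβ heights spanned 15 to 49 before induction and 33 to 80 after it, and GR heights 15 to 77. None of the 6 was near an H3K9ac region. The second window, on the same chromosome from 115300000 to 115400000, held 5, with heights of 19 to 63, 50 to 94 and 12 to 40, and no site near an H3K9ac region, although 5 regions of the 240 h list lay in the window. Windows with 4 sites numbered 5, of which 3 were on chromosome 6, and the first of these, from 17000000 to 17100000, had 2 sites near 240 h regions, and its C/EBPβ heights spanned 24 to 36 before induction and 60 to 88 after it.

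The sites were unevenly spread over chromosomes. Chromosome 6 held 161 of them (15.2%), where they made up 7.97% (6.87 to 9.24%) of the C/EBPβ 6 h peaks and 20.96% of the pre-bound ones. On chromosome 15 the shares were 7.85% (6.52 to 9.43%) and 21.3%, and on chromosome 7 they were 2.98% (2.01 to 4.39%) and 8.96%. Chromosome X had 7 sites, 1.45% (0.705 to 2.97%) of its 6 h peaks. On chromosome 19 the share of 6 h peaks was 6.70% (5.25 to 8.51%), with a median 6 h height of 48 at the sites. On chromosomes 1, 3 and 9 the shares were 3.66%, 3.69% and 3.44%. The median 6 h height of the sites was 51 on chromosome 6, 46 on chromosome 15 and 32 on chromosome X, and the median over all 6 h peaks was 19, 19 and 16. On chromosome 4, with 5.64% of its peaks, the sites had a median of 38, and on chromosome 11, with 4.21%, of 41, so height did not follow frequency throughout. The part of peak height in the spread over chromosomes was not tested. Without chromosome 6 the 24 h excess over pre-bound sites without GR and the excess in height ratio kept their direction and intervals without 0.

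**Figure D5:**
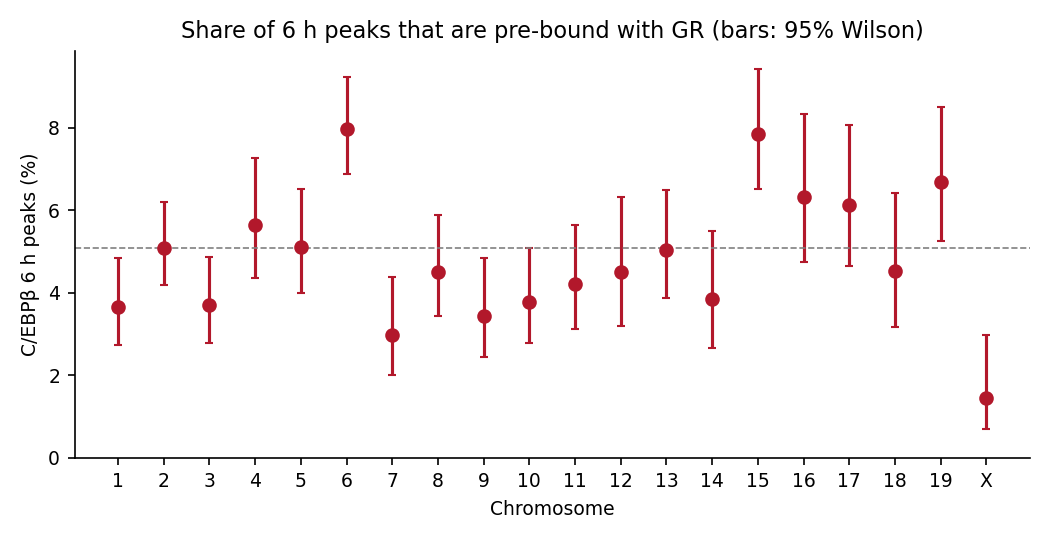
Share of the C/EBPβ 6 h peaks of each chromosome (y, %) that were pre-bound sites joined by GR, with 95% Wilson intervals and a dashed line at the genome value of 5.09%. The intervals of chromosomes 6 (7.97%), 15 (7.85%) and 19 (6.70%) lie wholly above the line. Those of chromosomes 1, 3, 7, 9 and X (1.45% on X) lie wholly below it.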

How the data were processed

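Members and lists were chosen with earlier results of these data known. Per the labels' protocols, ELAND aligned the 36 bp reads to mm8 (2 mismatches at most), and only unique placements entered, each start coordinate once, which caps tall peaks. How peaks were called, and whether the 4 inputs were used, is not given in the sources. The deposited factor lists give a fold enrichment (a ratio over a background not described) and a peak height (a read signal). The deposited H3K9ac lists give an FDR (a p-value type) and an average read count (a read signal) that the authors assigned to each region. Scaling between libraries is not stated. Coordinates are printed as deposited, and counting peaks that only touch as overlapping left 1056 sites.

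Python 3.11.15, numpy 2.4.6, pandas 2.3.3, scipy 1.17.1 and matplotlib 3.10.9 were used. Each site took the tallest 0 h and GR peak it overlapped. Shares carry 95% Wilson and differences 95% Newcombe intervals. Matched differences average the differences within 4 classes, weighted by the sites' class sizes. The code was tested on simulated lists. Named regions are the 5 tallest sites by 6 h, 0 h and GR height, the 5 tallest by GR near 24 h regions, the 3 tallest by 6 h height near 0 h and 240 h regions, the 3 highest and lowest height ratios (heights at or above the list median at 1 time or both), the 3 windows of 100 kb with most sites, and those at the edge of the definition. No annotation or sequence on mm8 was used here, so no genes or motifs are given.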

Additional observations from a re-analysis of the deposited data

How the results depend on the processing

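No paired analysis was possible because each group is 1 library. Of the differences under planned settings, 76 kept their direction, and their interval excluded or held 0 as before. A further 5 kept their direction but their interval came to hold 0, and 3 changed direction. Planned settings varied overlap, reach, strength, chromosome X, grouping into loci, matching on 6 h height (for the ratio also on 0 h height) or fold enrichment. Under settings chosen after seeing the data, 31 stayed the same in this sense. There, 1 interval came to hold 0, 1 came to exclude it and 1 difference changed direction. Those settings were without chromosome 6, touching peaks, matching H3K9ac shares on GR or 0 h height, matching on width, and pairs of 1 peak with 1 peak. Both counts, 76 and 31, include differences whose interval held 0 throughout, which had no side of 0 to keep. Keeping direction does not mean keeping size: the difference in 0 h height of 13.5 points was 8.94 with fold enrichment. It was 5.75 with the stronger peaks of the factor lists, where the classes and the tallest 0 h class were redefined. The 0 h difference from new sites with GR was 8.33 within 10 kb. The others follow. The 24 h difference from new sites with GR lost its call with the stronger peaks (-2.97 points), within 10 kb (-2.57) and with GR height matched (-1.99). The 0 h difference from pre-bound sites without GR turned to 0.421 within 10 kb and gained a call with width matched (-2.65). The 240 h differences turned to -0.0982 against new sites with 6 h height matched and to 0.404 against pre-bound sites without GR with width matched, all within counting error. The difference in 0 h height turned to -0.117 with the broad classes of 6 h height matched. The difference in neighbours from new sites with GR lost its call with the longer overlap (3.72), with 6 h height matched (3.18) and at 50 kb (0.455). The cause was not tested. Shares near regions moved with reach by construction. Within 10 kb they were 17.4% (0 h), 16.8% (24 h) and 14.9% (240 h). Direct overlap gave 6.16% at 24 h, and the stronger peaks gave 5.92% at 0 h and 12.5% at 24 h. Unknown depth limits every statement on missing peaks.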
